A study of Drosophila melanogaster with 3 samples.

Results

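A list of 10 glial and midline genes of Drosophila melanogaster was followed through the Pointed (pnt) peak lists of whole embryos. They were repo, gcm, loco, nrv2, moody, Gli, wrapper, sim, sli and pros, out of 13945 protein-coding genes. These names and the wider lists below were chosen with earlier results of these data known. Their counts are therefore not independent of the data. A gene was said to hold a peak when the summit of a peak lay inside its annotated span or within 2 kb of it. By that rule 7 of the 10 genes held 10 of the 3646 optimal peaks, the peaks the authors retained after comparing replicates by the irreproducible discovery rate. The material was 1 group of 3 biological replicates: mixed-sex embryos aged 0 to 24 h from the strain pnt-MiMIC-GFP, whose pnt gene carries an extra eGFP exon within an intron and so encodes a Pointed-eGFP fusion. After sonication to a size of 200 to 800 bp, chromatin was precipitated with an antibody against GFP, although 1 field of the labels names pnt as the antibody. All replicates carried the fusion, and no untagged embryos, second genotype or second stage were analysed here. The embryos were whole and spanned all of embryogenesis, so neither the cell type nor the stage behind a peak can be told from these lists, and no expression was measured against which glial or midline cells could be checked.

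Pointed is an ETS-domain activator that works at the end of the EGF receptor, Ras and MAP kinase pathway. In the fly nervous system it is known from genetics for roles in both classes of glia, the lateral glia that descend from gcm-expressing progenitors and the midline glia that survive and differentiate under EGF receptor signalling. Gcm is the switch that turns neural progenitors to glia, Repo is the homeodomain factor that maintains the fate in all lateral glia, and Single-minded (sim) is the bHLH-PAS master regulator of the midline, which acts with its partner Tango. Prospero (pros) is a homeodomain factor of dividing neural progenitors and of some glia. The other genes are effectors: loco, nrv2, moody and Gli in glia and their junctions, and wrapper and sli in midline glia.

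Of the 6 effectors, 5 held optimal peaks (loco, nrv2, moody, wrapper and sli, but not Gli), and of the 4 transcription factors sim and pros did and gcm and repo did not. The count of 7 of 10 stood beside 29.4% of all protein-coding genes by the same rule (4103 genes). The 10 genes were longer than most, with a median span of 7925 bp against 2166 bp over all genes, and longer genes hold summits more often. Of the 3 genes under 5 kb (repo, gcm and wrapper) 1 held a peak, beside 24.0% of all 10461 genes of that size. Of the 4 genes of 5 to 20 kb (loco, nrv2, moody and Gli) 3 held a peak, beside 42.0% of 2471 genes. The 3 genes of 20 kb and over (sim, sli and pros) all held a peak, beside 55.3% of 1013 genes. When each peak was given only to the gene with the nearest transcription start site (TSS), 6 of the 10 genes remained, without wrapper, with 8 peaks, beside 17.0% of all genes.

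The same rule was applied to the strongest 3646 peaks of each relaxed replicate list, called that replicate's top list here. In replicate 1, 6 of the 10 genes held such a peak (without nrv2), beside 29.6% of all genes. In replicate 2, 7 did, the same 7 as in the optimal list, beside 27.0% of all genes. In replicate 3, 6 did, among them Gli but neither nrv2 nor wrapper, beside 30.9% of all genes. In all, 5 genes (loco, moody, sim, sli and pros) held a top-list peak in every replicate, beside 20.0% of all genes. In the pooled relaxed list, which also contains weak background regions, all 10 genes held a peak, but so did 76.9% of all genes, and that list therefore separates few genes. The top lists differed in where their peaks lay: 49.3% of replicate 1, 40.6% of replicate 2 and 56.4% of replicate 3 peaks had their summit within 500 bp of a TSS (TSS-proximal). Its part in the differences between replicates below was not tested.

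**Figure D1:**
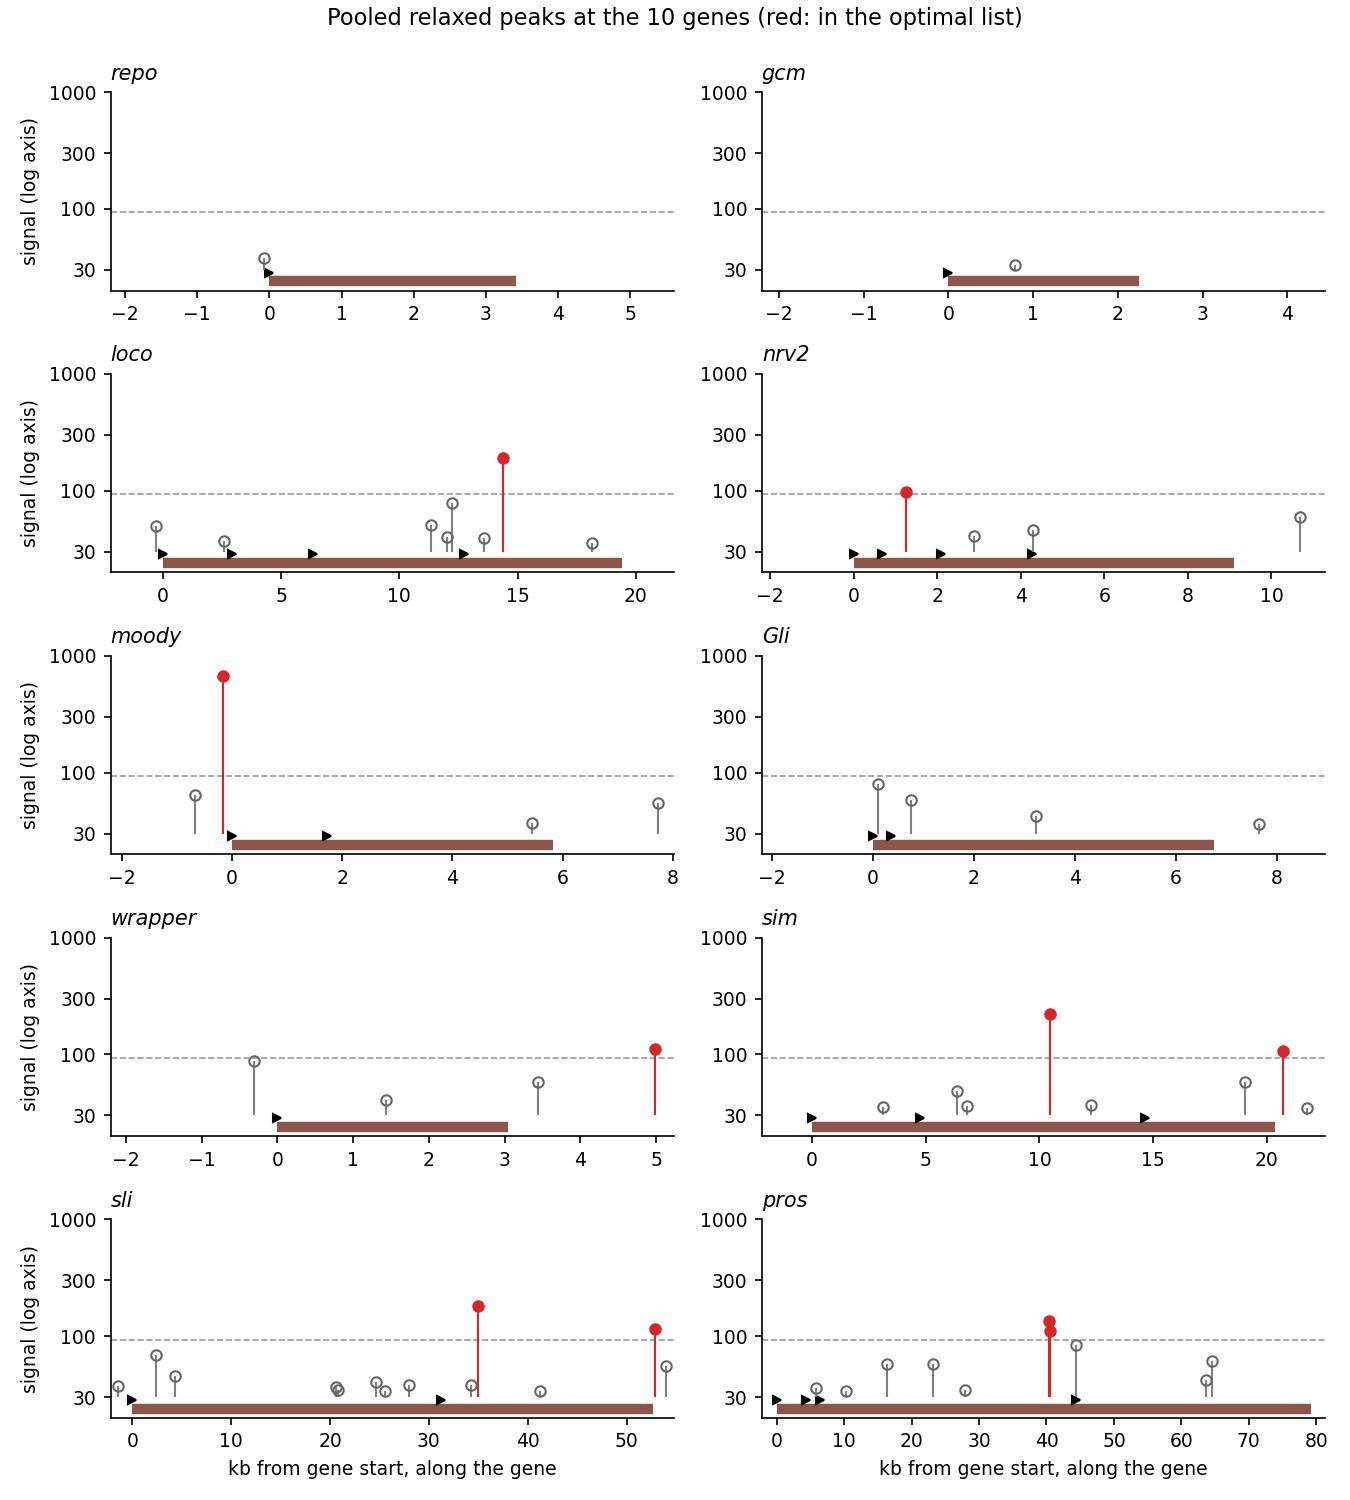
Each panel shows 1 gene along its own direction of transcription, with kb from the gene start on the horizontal axis and the authors' signal of each pooled relaxed peak on a log axis; filled red marks are in the optimal list, open marks are not, arrowheads are TSSs, the bar is the gene span and the dashed line is the lowest optimal signal of 93.2. The moody peak at its start stands far above all other marks, and repo, gcm and Gli have open marks only.

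The genes that set the glial fate had the weakest peaks. gcm (2L:9579498-9581745, minus strand, 1 TSS) held a single peak in the pooled relaxed list, at 2L:9580771-9581154 in its coding sequence, 782 bp from the TSS. Its signal was 33.3, rank 22912 of 23148, close to the bottom of that list. The deposited −log10 q was 0.0192, beside 2.88 at nrv2, the lowest among the 10 optimal peaks. That place was matched at rank 5788 in replicate 1 and 8885 in replicate 2 and was not matched in replicate 3, whose own best gcm peak (rank 6947) lay 17 bp from the TSS. None of these was among the 3646 strongest of its replicate, and the replicates placed their best gcm peaks at different points of the gene. The nearest optimal summit lay 2640 bp beyond the gene and was nearest to the TSS of Mtpalpha, a mitochondrial fatty-acid oxidation enzyme. The neighbouring paralog gcm2 held no optimal peak either.

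repo (3R:18236192-18239602, plus strand, 1 TSS) likewise held 1 pooled relaxed peak, at 3R:18235924-18236307, with its summit 76 bp from the TSS. Its signal was 37.8, rank 17272, with a −log10 q of 0.0808. It was matched at rank 22013 in replicate 1 and 12283 in replicate 3 and was not matched in replicate 2, which had no relaxed peak at repo at all. The best peak at repo in any replicate was a replicate 3 peak of rank 9122 over the 3′ untranslated region. The nearest optimal summit was 15756 bp away from the gene.

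pros (3R:11328480-11407627, plus strand, 4 TSSs) encodes Prospero, which is handed to the daughter cell when a neuroblast divides. Its 2 optimal peaks overlapped in 1 intron that 3 of its 6 transcripts span. The peak at 3R:11368643-11369026 had a signal of 135.4 (rank 2194) and the peak at 3R:11368843-11369226 had a signal of 109.7 (rank 2914). Their summits were 200 bp apart, 3953 and 3753 bp upstream of the promoter at 11372788. The overlapping peaks of the replicates had signals of 36.6, 55.7 and 38.4 in replicates 1, 2 and 3, at ranks 3157, 1578 and 3520, all 3 within the top lists. These replicate peaks were matched by 1 shared base, and both optimal peaks matched the same ones. The replicate 1 summit was 2 bp from the first summit, and the replicate 2 summit was 17 bp from the second. When a replicate peak had to cover at least 0.5 of the optimal peak, the first pros peak had no match in replicate 2, and the second matched a different replicate 1 peak, at rank 4752. The downstream promoter itself, 10 bp from a pooled peak of signal 84.0, ranked 12381, 24939 and 2976 in the 3 replicates and was outside the optimal list. Thus the promoter was in the top list of replicate 3 alone, and the intron held a top-list peak in all of them.

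loco (3R:22619968-22639387, minus strand, 4 TSSs) encodes an RGS-domain regulator of G protein signalling, and is known in flies as a gene whose glial expression needs both Gcm and Pointed. Its optimal peak, at 3R:22624796-22625179, had a signal of 188.7 (rank 1320). It lay in an intron of all 5 transcripts, 1646 bp downstream of the promoter at 22626634. The matching signals were 55.8, 85.1 and 43.9 in replicates 1, 2 and 3, at ranks 1779, 823 and 2762, or 1788 ± 970 (SD, n = 3). Every replicate held it in its top list, and the replicate summits lay 2 to 54 bp from the optimal summit. A second place, at 3R:22626985-22627368, was 543 bp from the same promoter. It had rank 1159 in replicate 3 and rank 7108 in replicate 1, and was not matched in replicate 2. It was the strongest loco peak of replicate 3, which had 18 relaxed peaks at loco against 4 and 7 in replicates 1 and 2.

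nrv2 (2L:6789770-6798862, minus strand, 4 TSSs), which encodes a beta subunit of the Na,K-ATPase found in glia, held the weakest of the 10 optimal peaks. It lay at 2L:6797412-6797795, in an intron of 2 of the 6 transcripts and 590 bp downstream of a TSS, with a signal of 97.5 (rank 3417). The replicate signals were 31.0, 38.3 and 33.2, at ranks 3883, 2586 and 4587, or 3685 ± 1015 (SD, n = 3). Replicate 2 alone held it in its top list. The small gene CG43610 also lay within 2 kb of the summit. The adjacent paralog nrv1, a second beta subunit, held a far stronger promoter peak of its own at 2L:6787159-6787398. That peak had a signal of 569.2 (rank 150) and ranks of 123, 177 and 128 in the replicates.

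moody (X:2044292-2050120, minus strand, 2 TSSs) encodes a G protein-coupled receptor of the surface glia that seal the blood-brain barrier, and held by far the strongest peak of the 10 genes. The peak, at X:2050157-2050418, had a signal of 675.4, rank 101 of 3646. Its summit was 170 bp upstream of the outer moody TSS. The replicate signals were 243.5, 242.2 and 207.8, at ranks 97, 98 and 100, or 98.3 ± 1.53 (SD, n = 3), and the replicate summits lay 3 to 16 bp from the optimal one. No other peak of the 10 genes had ranks this close together. The summit also lies inside CG4313, a longer gene on the opposite strand that spans moody, and position alone does not say which of them the peak serves. A weaker place at X:2050698-2050811, 661 bp upstream, was in the top lists of replicate 1 (rank 2919) and replicate 2 (rank 1581) and was not matched in replicate 3. With a pooled signal of 63.8 it stayed out of the optimal list.

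Gli (2L:15756002-15762758, minus strand, 2 TSSs) encodes Gliotactin, a transmembrane protein of the corners where 3 septate-junction cells meet. Its best pooled peak, at 2L:15762471-15762854, lay 95 bp from the outer TSS with a signal of 79.3 (rank 4456). It was matched at rank 4893 in replicate 1 and 3108 in replicate 3 and was not matched in replicate 2, where the strongest relaxed peak of the gene (rank 7021) was 439 bp from the inner TSS. Gli thus held a top-list peak in replicate 3 only. Its nearest optimal summit was 148536 bp away from the gene, the farthest of the 3 genes without a peak.

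sim (3R:13057755-13078124, plus strand, 3 TSSs) was the only midline regulator on the list, and held 2 optimal peaks. The stronger, at 3R:13068033-13068416, lay in an intron that 3 of the 4 transcripts span, 4174 bp upstream of the promoter at 13072399. Its signal was 219.3 (rank 1040), the second highest among the 10 peaks. The replicate signals were 49.7, 35.3 and 137.5, at ranks 2105, 2869 and 284, or 1753 ± 1328 (SD, n = 3). All 3 top lists held it, but replicate 3 placed it far higher than the other two. The second peak, at 3R:13078277-13078660, was intergenic, 345 bp past the end of sim, with a signal of 107.0 (rank 3010). Its replicate signals were 27.6, 40.5 and 36.8, at ranks 4588, 2434 and 3798, and replicate 2 alone held it in its top list.

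The bases around the summits of moody, sim, loco, nrv2 and pros are shown so that the places can be compared, read from the Release 6 (dm6) plus strand, 5′ to 3′. Each reaches 100 bp either side of 1 summit, except that of pros, which spans both summits with 40 bp on each side. Capitals mark GGAA and its reverse complement TTCC, the core of the sites that ETS factors bind, and everything else is in lower case.
moody, X:2050190-2050390: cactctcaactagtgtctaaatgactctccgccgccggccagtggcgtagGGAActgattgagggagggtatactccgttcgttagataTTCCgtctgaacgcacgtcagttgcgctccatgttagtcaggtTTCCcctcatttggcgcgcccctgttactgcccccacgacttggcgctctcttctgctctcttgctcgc
sim intron, 3R:13068125-13068325: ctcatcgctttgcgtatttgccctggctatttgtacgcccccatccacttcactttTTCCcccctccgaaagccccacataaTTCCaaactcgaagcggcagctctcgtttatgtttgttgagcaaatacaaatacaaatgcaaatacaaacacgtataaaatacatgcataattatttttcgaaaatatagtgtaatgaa
sim end, 3R:13078369-13078569: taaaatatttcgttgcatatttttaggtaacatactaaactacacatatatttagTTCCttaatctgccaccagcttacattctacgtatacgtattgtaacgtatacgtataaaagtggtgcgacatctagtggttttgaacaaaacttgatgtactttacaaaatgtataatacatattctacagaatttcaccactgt
loco intron, 3R:22624888-22625088: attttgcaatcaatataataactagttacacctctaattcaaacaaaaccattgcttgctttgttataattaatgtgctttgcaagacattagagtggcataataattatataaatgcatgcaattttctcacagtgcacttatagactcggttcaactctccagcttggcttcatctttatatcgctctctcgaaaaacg
nrv2 intron, 2L:6797504-6797704: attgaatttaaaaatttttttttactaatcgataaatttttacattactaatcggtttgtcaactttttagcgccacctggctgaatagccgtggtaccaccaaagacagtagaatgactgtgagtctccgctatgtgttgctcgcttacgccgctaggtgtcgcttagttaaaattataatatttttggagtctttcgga
pros intron, 3R:11368795-11369075: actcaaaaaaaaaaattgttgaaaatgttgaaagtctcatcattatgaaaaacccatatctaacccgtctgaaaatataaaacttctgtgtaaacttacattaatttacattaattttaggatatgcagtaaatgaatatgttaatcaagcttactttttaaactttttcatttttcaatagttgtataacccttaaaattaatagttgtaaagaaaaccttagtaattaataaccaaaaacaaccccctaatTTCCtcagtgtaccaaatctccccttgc
The moody window, the strongest, held 3 GGAA cores, the nearest 8 bp from the summit, and 56.2% of its bases were G or C. The windows of the other 9 peaks held 30.3% to 39.3% G or C. The loco and nrv2 windows held no GGAA within 100 bp of the summit. The intronic sim window held 2 cores, the nearest 15 bp from the summit, and the window past the end of sim held 1, at 42 bp. Around the first pros summit no GGAA lay within 100 bp, and the nearest to the second was 13 bp away.

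Among the windows of all 10 peaks, 100 bp either side of the summit and read on both strands, 7 held GGAA, beside 75.5% of all 3646 optimal windows and 80.3% of the 664860 windows that of the same length that tile the 6 main chromosome arms. The longer ETS patterns CCGGAA and CMGGAAR, which contain GGAA, matched in 1 of the 10, the peak beside the end of sli, beside 3.43% and 5.62% of all optimal windows and 6.11% and 9.32% of tiled windows. ACGTG, the core bound by Sim with Tango, matched in 3 (the intronic peak of sim, the first pros peak and moody), beside 13.2% of optimal and 15.8% of tiled windows. That count was 1 (moody) within 50 bp of the summit, beside 6.14% of optimal and 8.20% of tiled windows. It was 5 within 250 bp, beside 35.1% and 34.7%. The Gcm site ATRCGGGY matched in none, beside 0.521% of optimal and 0.998% of tiled windows. The homeodomain pattern CAATTA matched in 1 (wrapper), beside 18.5% of optimal and 17.7% of tiled windows. The E-box CAGCTG matched in 2, in sli and pros, beside 9.30% and 8.39%. The repeat GAGAG matched in 5, beside 24.1% and 21.5%, and the promoter element TATCGATA in none, beside 3.21% and 0.564%. A match is a run of letters and not a site, and with 10 windows a single match moves a share a long way.

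sli (2R:15869495-15922118, minus strand, 2 TSSs) encodes Slit, the secreted repellent that midline glia present to Robo receptors on growing axons. Its stronger optimal peak, at 2R:15886987-15887370, lay in an intron of all 6 transcripts, 3738 bp downstream of the inner promoter, with a signal of 183.0 (rank 1414). The replicate signals were 47.8, 48.7 and 87.6, at ranks 2236, 1899 and 760, or 1632 ± 773 (SD, n = 3), so every top list held it. The other, at 2R:15869025-15869408, lay 278 bp past the end of sli but 70 bp from the TSS of Rif1, a replication-timing factor. Its signal was 115.2 (rank 2728). It had rank 1096 in replicate 3 and 4317 in replicate 1 and was not matched in replicate 2, the only one of the 10 peaks with no base shared in a relaxed list. By its nearest TSS that peak belongs to Rif1, not to sli.

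wrapper (2R:22379637-22382675, plus strand, 1 TSS) encodes an immunoglobulin-domain surface protein by which midline glia hold on to commissural axons. Its only optimal peak, at 2R:22384427-22384810, lay 1944 bp past the end of the gene, in an intron of its neighbour CG13506, whose TSS was 1485 bp away. The signal was 111.9 (rank 2838). The replicate signals were 48.6, 45.9 and 20.4, at ranks 2178, 2061 and 10639, or 4959 ± 4919 (SD, n = 3). Replicates 1 and 2 held it in their top lists, and replicate 3 placed it well below. The promoter of wrapper had a pooled peak at 2R:22379139-22379522, 306 bp from the TSS, with a signal of 87.9, just under the optimal list. Replicate 2 held that promoter peak in its top list at rank 3225, while replicate 1 placed it at 3709, just outside, and replicate 3 at 13312.

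**Figure D2:**
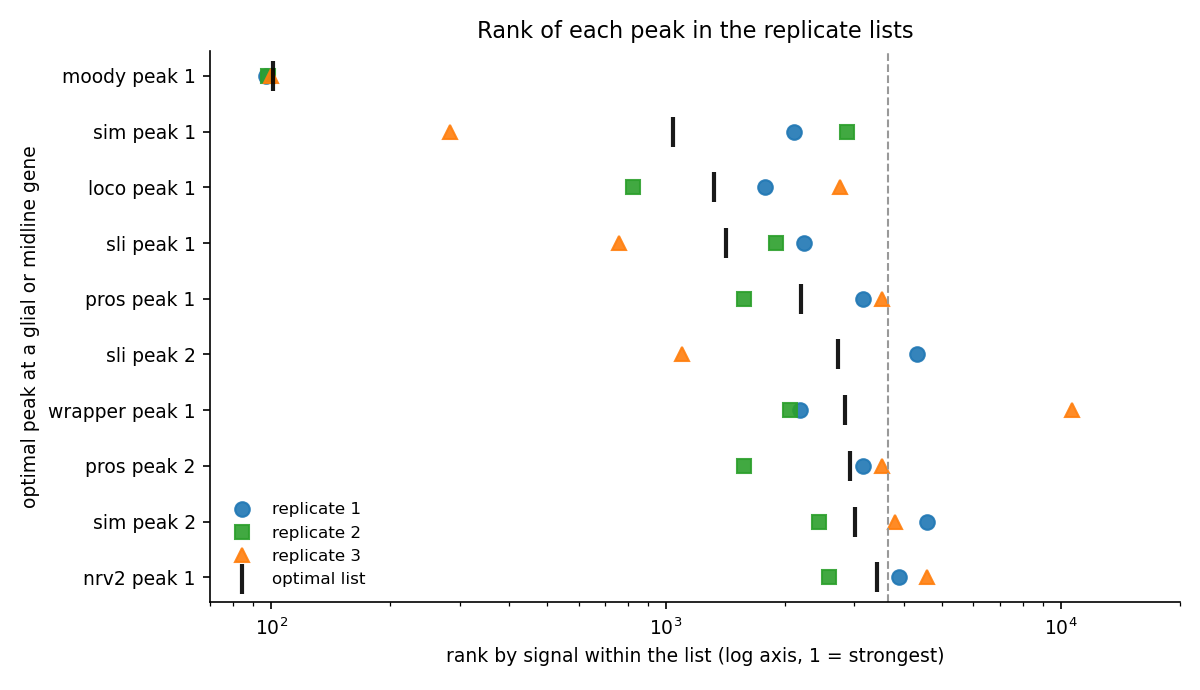
Each row is 1 of the 10 optimal peaks, ordered by its rank in the optimal list (black bar), with coloured marks for the rank of the peak sharing at least 1 base in each replicate on a log axis where 1 is the strongest; the dashed line is rank 3646, the end of a top list. The 3 marks of moody lie together between 97 and 100, the sim intron spreads from 284 to 2869, and the second sli peak has no mark for replicate 2.

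Over the 10 peaks, 6 were in all 3 top lists (60.0%), beside 57.0% of all optimal peaks, and 9 of 10 were matched in all 3 relaxed lists, beside 3408 of 3646. Both pros peaks enter these counts through the same replicate peaks. With the stricter overlap, 4 of the 10 were in all 3 top lists, without the pros pair, beside 53.2% of all optimal peaks, and 8 of 10 were matched in all 3 relaxed lists, beside 3262 of 3646. Replicate 1 held 7 of them in its top list, replicate 2 held 9 and replicate 3 held 7, beside 86.6%, 81.5% and 73.4% of all optimal peaks. By 1 shared base the 6 peaks in all top lists were those of moody and loco, the introns of sim and sli, and the overlapping pair of pros. No single replicate gave the higher rank throughout: replicate 3 ranked the introns of sim and sli highest, and replicate 2 ranked loco, nrv2, wrapper, pros and the end of sim highest. Because the replicates enter the pooled list, their ranks are not independent of the optimal list.

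The boundary of the optimal list, a signal of 93.2, fell among the weaker peaks of these genes. Just inside were nrv2 (97.5) and the end of sim (107.0). Just outside were the promoter of wrapper (87.9), the inner promoter of pros (84.0), the promoter of Gli (79.3) and the second place of loco (79.1). In all, the pooled relaxed list held 57 peaks at the 10 genes, 10 of them optimal and 47 below, and 12 of those 47 were TSS-proximal. Of the 47, 10 were matched in all 3 replicates. The relaxed lists of replicates 1, 2 and 3 held 70, 67 and 86 peaks at the 10 genes. pros, the longest, had 21, 22 and 7 of them, and sli had 12, 10 and 26, so the numbers per gene differed between replicates.

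Most of the 10 peaks, 8 of them, lay over 500 bp from any TSS, but the strongest did not. Their median distance to the nearest TSS was 2692 bp, against 541 bp over all optimal peaks. Of the 10, 2 were TSS-proximal, against 48.8% of all optimal peaks, 7 were intronic, against 35.1%, and 1 was intergenic. The 7 include both overlapping pros peaks and the wrapper peak, which lay in an intron of CG13506. Peaks entered this count only by lying in or near a gene span. The genes were longer than most (median 7925 bp against 2166 bp), so these shares and distances are not independent of that rule. In the top lists of the replicates, 1 of 7 peaks at the 10 genes was TSS-proximal in replicate 1, 2 of 10 in replicate 2 and 4 of 9 in replicate 3, beside the shares of 49.3%, 40.6% and 56.4% in those whole lists. Replicate 3 thus came closest to its whole list. Of the 2 TSS-proximal optimal peaks only that of moody was at a promoter of the 10 genes, the other being that of Rif1. Their median signal was 125.3, against 153.5 over all optimal peaks. Read from the promoters instead, 1 of the 24 annotated TSSs of the 10 genes had an optimal summit within 500 bp, beside 14.1% of the 19607 TSSs of all protein-coding genes. In the pooled relaxed list 9 of the 24 had one, beside 40.2% of all. In the relaxed lists of replicates 1, 2 and 3 it was 7, 9 and 13 of the 24, beside 41.4%, 29.9% and 54.0% of all, and 4 were marked in all 3 replicates, beside 19.7%.

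**Figure D3:**
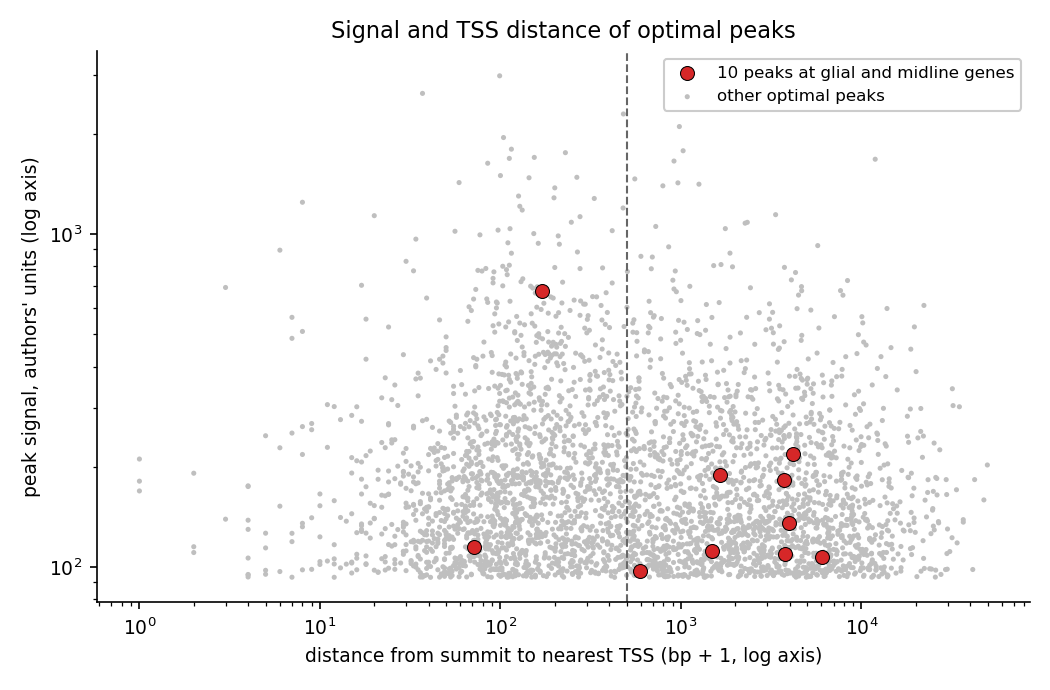
Each point is 1 of the 3646 optimal peaks, with the distance from its summit to the nearest TSS (bp + 1, log axis) against its signal in the authors' units (log axis); the 10 peaks at the glial and midline genes are red and the dashed line is 500 bp. The red points lie mostly right of the line with signals of 97.5 to 219.3, and left of it are the moody peak at 675.4 and the sli peak beside Rif1 at 115.2.

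A set of 4 wider lists placed these genes among others of the same processes. Of their 77 genes, 34 held an optimal peak (44.2%), beside 29.4% of all genes. Median spans were 11461 bp for the glial, 10472 bp for the septate junction and 13265 bp for the midline list. The median was 3322 bp for the neuroblast list and 2166 bp over all genes. Of all genes of 5 to 20 kb, 42.0% held a peak, and of those under 5 kb, 24.0%. Of 20 glial and glial-signalling genes, 7 held a peak (35.0%). The strongest with their own TSS nearest were at aop, the ETS repressor Yan that opposes Pointed (signal 416.9, rank 304), and at ths, an FGF for the receptor Heartless (signal 416.7, rank 305). Gs2, ced-6, ttk, htl and pnt itself, the tagged gene, also held peaks. The strongest peaks at ced-6 and pnt were nearest to the TSS of another gene. No optimal peak was held by gcm2, drpr, Eaat1, alrm, Mdr65, Tret1-1, axo, dac, tll, pyr, bnb, Ncc69 or zyd. Of 17 genes listed under septate junctions, 8 held a peak (47.1%). Among peaks with their own TSS nearest, the strongest were at nrv1, the paralog of nrv2 (rank 150), and at dlg1, a scaffold of cell polarity (signal 248.5, rank 830). Nrg, Atpalpha, vari, Mcr, scrib and Galphai also held peaks, and Nrx-IV, Cont, cora, Tsf2, sinu, kune, Lac, l(2)gl and Galphao held none. The strongest peaks at Nrg, vari and Mcr were nearest to the TSS of another gene.

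Of 23 midline and axon guidance genes, 14 held a peak (60.9%), beside 29.4% of all genes. The strongest with their own TSS nearest were at aos, the secreted EGF receptor inhibitor Argos (signal 617.7, rank 125), and at spi, the EGF receptor ligand Spitz (signal 594.0, rank 137). A stronger peak (signal 676.2, rank 100) lay at otp, a homeobox gene, but was nearest to the TSS of Cib2. The netrins NetA and NetB, their receptor gene fra, robo2, Sdc, S, Egfr, vn, glec, Tl and dap also held peaks. The robo2 peak had rank 2827 and was not matched in replicate 2. None was held by robo1, robo3, comm, comm2, rho, tgo, vvl, D or btl. No peak at NetB, fra, Egfr, vn or glec was nearest to their own TSS. Of 17 neuroblast and neuronal genes, 5 held a peak (29.4%), the share of all genes to the first decimal. The strongest with their own TSS nearest were at elav, the pan-neuronal RNA-binding protein (signal 633.7, rank 114), and at brat, a tumour suppressor of neuroblast daughters (signal 563.3, rank 156). In the top lists of replicates 1, 2 and 3, the counts were 8, 7 and 7 of the 20 glial genes. They were 9, 9 and 10 of the 17 septate junction genes and 12, 14 and 18 of the 23 midline genes. For the 17 neuroblast genes they were 5, 5 and 4. The shares over all genes by the same rule were 29.6%, 27.0% and 30.9%. The midline list had the highest share in the optimal list and in replicates 2 and 3, and its median span of 13265 bp was also the longest of the 4 lists.

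**Figure D4:**
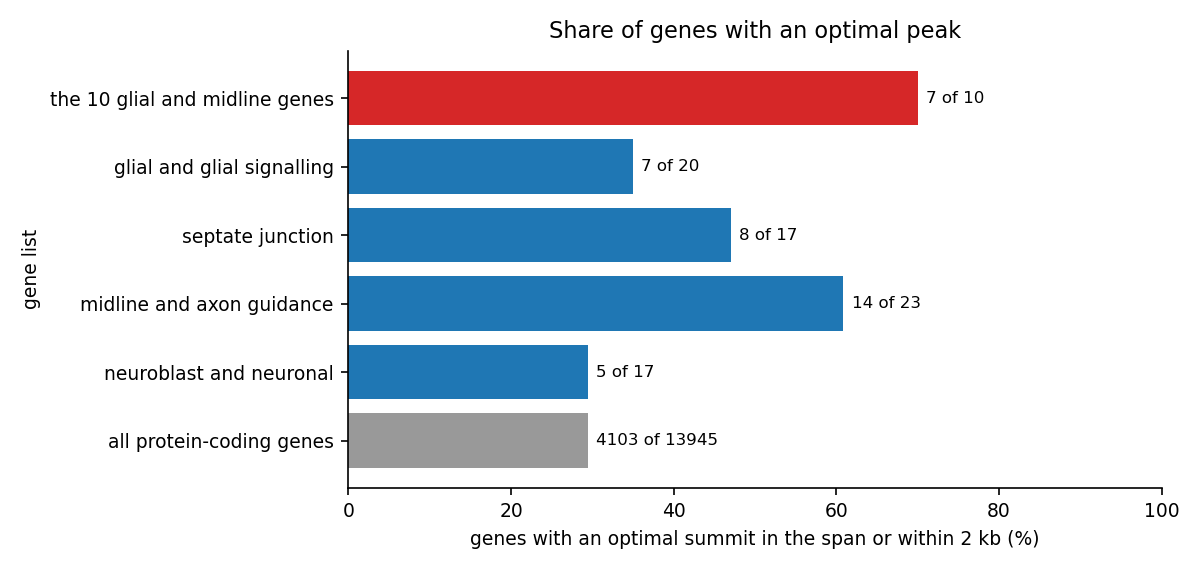
Bars give the share of genes in each list with an optimal summit in the span or within 2 kb, in percent, with the counts printed beside them. The 10 glial and midline genes reach 7 of 10 and the midline and axon guidance list 14 of 23, and the neuroblast and neuronal list, at 5 of 17, equals the share over all protein-coding genes to the first decimal.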

How the data were processed

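Pointed-eGFP binding was read from deposited narrowPeak lists on dm6: an optimal list, a pooled relaxed list and 1 relaxed list for each of the 3 replicates. Peaks were called against a control, per the notes deposited with the files; the caller, aligner, threshold and depth are not stated in the sources used. Deposited with each peak were a signal of unstated scale and a significance as −log10 of a q-value. Signal ranked peaks within a list, and no value was compared across lists by a test. The optimal list was exactly the 3646 pooled peaks of highest signal among 23148. The dm3 lists and signal tracks were not analysed here.

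Summits were placed on the Release 6 assembly with Ensembl release 115 annotation, without transposable elements, in Python 3.11.15 with pandas 2.3.3, on 6 chromosome arms. A peak matched a replicate peak by at least 1 bp, the one of highest signal if several. Patterns used M for A or C, R for A or G and Y for C or T. Peak assignment was tested on simulated positions. The text names the 10 genes, the genes whose TSS is nearest to their peaks, and the 2 genes of each wider list with the strongest peak nearest their own TSS; others named were chosen after their values were seen. The members and lists were chosen with earlier results of these data known. With 1 group no test was made.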

Additional observations from a re-analysis of the deposited data

How the results depend on the processing

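Of the 10 genes, 7 held an optimal peak; 4 did (loco, moody, sim and sli) among the 1823 strongest optimal peaks, 5 with the gene span alone, and 8 with a reach of 5 or 10 kb, which added gcm. With 1 replicate left out, and the peak required in the top lists of the others, 5 to 6 did, beside 19.5% to 22.8%. The count of 10 peaks became 4 among those 1823, 57 in the pooled relaxed list, 6 in the top lists of all 3 replicates, 6 with the span alone, 19 with 10 kb, and 6 to 7 with 1 replicate left out. The count of 4103 genes became 2466, 10723, 2625, 1398 and 7910 in those settings, 2724 to 3180 with 1 replicate left out, and 2366 by nearest TSS. The 34 of 77 genes of the wider lists became 70 in the pooled list, in which 76.9% of all genes held a peak. There 10 of the 10 genes had a peak nearest their own TSS instead of 6, without a share over all genes to set beside it. The cause was not tested, but each setting changes how many peaks or how much sequence is counted. With 50 or 250 bp either side of the summit, 11 of 18 counts of pattern matches stayed within 1.5 times. Those 11 include ATRCGGGY and TATCGATA, which matched in 0 of the 10 windows at every width. ACGTG matched in 1 at 50 bp, beside 6.14% of optimal and 8.20% of tiled windows. At 250 bp it matched in 5, beside 35.1% and 34.7%, instead of 3 at 100 bp. All 10 windows held GGAA at 250 bp, but so did 97.1% of optimal and 97.8% of tiled windows. Ranking by the q-value separated few peaks, since most optimal peaks at these genes shared 1 value. An overlap of 0.5 of the peak, applied to these 2 counts after seeing the data, left 4 of 10 peaks instead of 6 in all top lists and 8 instead of 9 in all relaxed lists, both through pros. No paired analysis was possible because there is 1 group. Read depth is unknown here, so a peak missing from a list is not shown to be absent.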
